A study of Drosophila melanogaster with 6 samples.

Results

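Intervals of a Targeted DamID experiment on the homeodomain transcription factor Drgx were examined at 10 genes of the Notch pathway: N, Dl, Ser, fng, kuz, Su(H), mam, H, numb and neur. The genes were named by their place in the pathway, with earlier results of these data known. An interval was counted at a gene when it overlapped the gene body or the 5 kb on either side by at least 1 bp. Of 2396 deposited intervals, 20 met this rule, and they fell at 7 of the 10 genes. No interval lay at kuz, Su(H) or H.

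Targeted DamID expresses the bacterial methylase Dam, fused to a protein of interest, at a low level in chosen cells, so that adenines in GATC motifs near the visited sites become methylated. The samples were 3 of Dam-Drgx, carrying the transgene UAS-Dam-DRGX, and 3 of Dam alone, carrying UAS-Dam. Both groups also carried the driver R23G12-Gal4, the membrane marker UAS-CD8-GFP and tubGal80ts, a temperature-sensitive repressor that holds Gal4 off in the cold. Animals grew at 18 °C to the third larval instar and were kept at 29 °C for 24 h, and the brains of wandering larvae were taken; how many brains went into a sample is not stated in the labels. The cells profiled are those in which the R23G12 fragment drives Gal4, and the labels call them T4/T5 neurons, which detect the direction of visual motion in the optic lobe. The list of intervals holds no expression value, so this label was not checked against marker genes.

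The authors deposited 1 list for the whole series, with a score and a false discovery rate (FDR) for each interval. The list names no sample. It was read as the comparison of Dam-Drgx with Dam alone, which neither the labels nor the file states. Depth per library, the level in Dam-only samples and the spread between replicates were not analysed here, and no value below carries a replicate error or a test. The score is the authors' own value for each interval, on a scale that is not stated, and serves here as a description and for ranks inside the list. In bulk tissue, fewer cells with a signal and a weaker signal per cell cannot be told apart. Coordinates are those of BDGP6, and genes are those of the RefSeq Release 6 table, which gives neither strand nor exons. Exons, introns, UTRs and the side on which a gene starts were not analysed here.

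Notch is a receptor for ligands on the surface of neighbouring cells. After a ligand binds, the receptor is cut first by an ADAM protease and then by gamma-secretase, and its intracellular part enters the nucleus and turns the DNA-binding protein Su(H) from repression to activation of target genes. Numb, handed to only 1 daughter of an asymmetric division, blocks the pathway in that daughter. Notch signalling at the last division of the T4/T5 lineage separates T4 from T5 siblings.

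The 7 genes with an interval were the receptor gene, both ligand genes, the glycosyltransferase gene fng, the co-activator gene mam, and the genes of the regulators numb and neur. Among all 13922 protein-coding genes, 2776 (19.9%) had an interval by the same rule. Long genes offer more room, and most of the 10 genes are long. With gene bodies alone the same 7 genes had an interval, as did 8.32% of protein-coding genes. All 6 Notch pathway genes from 15 kb to under 40 kb (N, Dl, Ser, fng, numb and neur) had one, against 43.7% of the 897 protein-coding genes of that length. Of the longest pair, mam had 4 and kuz had none, and of 461 protein-coding genes of 40 kb or more 72.2% had an interval. Among protein-coding genes at least as long as Su(H), the shortest of the 10, the share was 30.8%. The shorter pair, Su(H) and H, fell in length classes in which 15.8% and 21.9% of genes had an interval. The mean number of intervals in the class from 15 kb to under 40 kb was 2.67 over the 6 Notch pathway genes, against 0.687 over all genes of the class. Because the 10 genes were picked with earlier results of these data known, these shares are descriptions only.

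**Figure D1:**
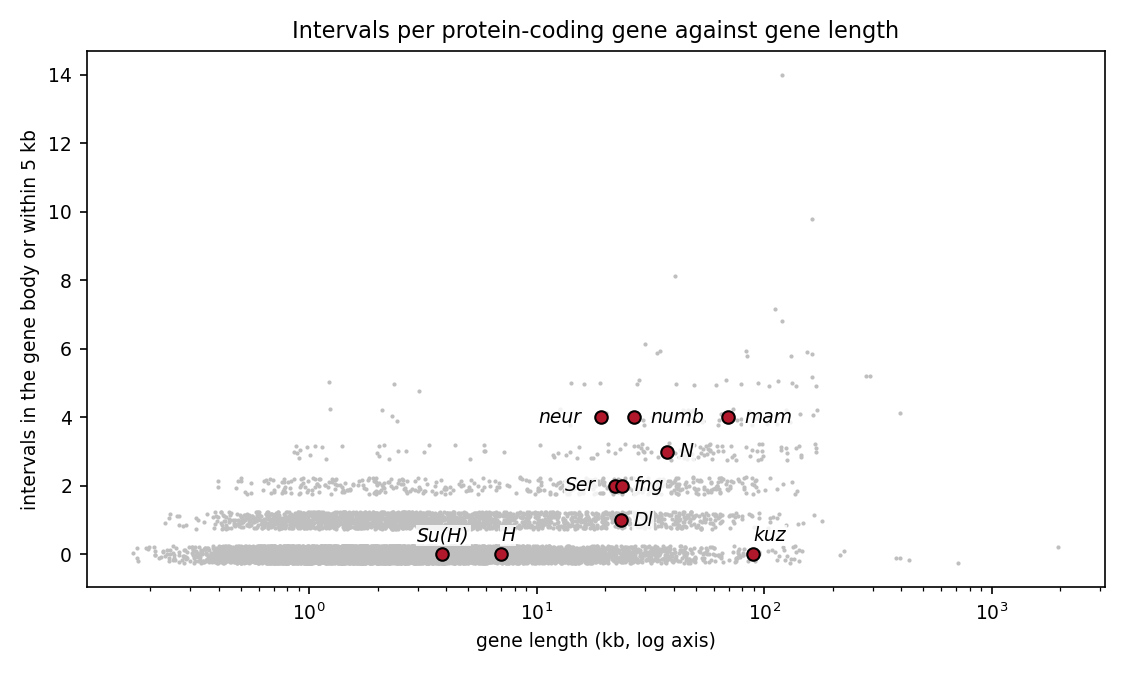
Number of intervals in the gene body or within 5 kb (vertical axis; grey points are spread slightly up and down) against gene length in kb (horizontal log axis) for the 10 Notch pathway genes (red, named) and all other protein-coding genes (grey). Numb, neur and mam sit at 4 intervals, N at 3, and kuz, Su(H) and H at 0.

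Of the 20 intervals, 19 overlapped the body of their gene and 1 lay in a flank, at Ser. In the whole list, 1563 of the 2394 intervals on the arms (65.3%) overlapped the body of a protein-coding gene. At protein-coding genes from 15 kb to under 40 kb, 78.6% of the intervals counted at a gene overlapped its body. None of the 19 met the body of another protein-coding gene, and the share of such intervals in the whole list was not counted. An end of the gene was covered by 3 of the 20, at N, Ser and mam, and in the whole list 338 intervals on the chromosome arms (14.1%) covered an end of some protein-coding gene. The windows of the 10 genes, 422 kb in all, held 4.74 intervals per 100 kb, against 1.78 per 100 kb on the rest of the 6 arms, Y left out. Intervals covered 5.89% of the windows, against 3.27% of the arms as a whole. The windows surround genes, most of them long, whereas the arms also hold sequence far from genes. Density and coverage in windows of other genes of like length were not computed.

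**Figure D2:**
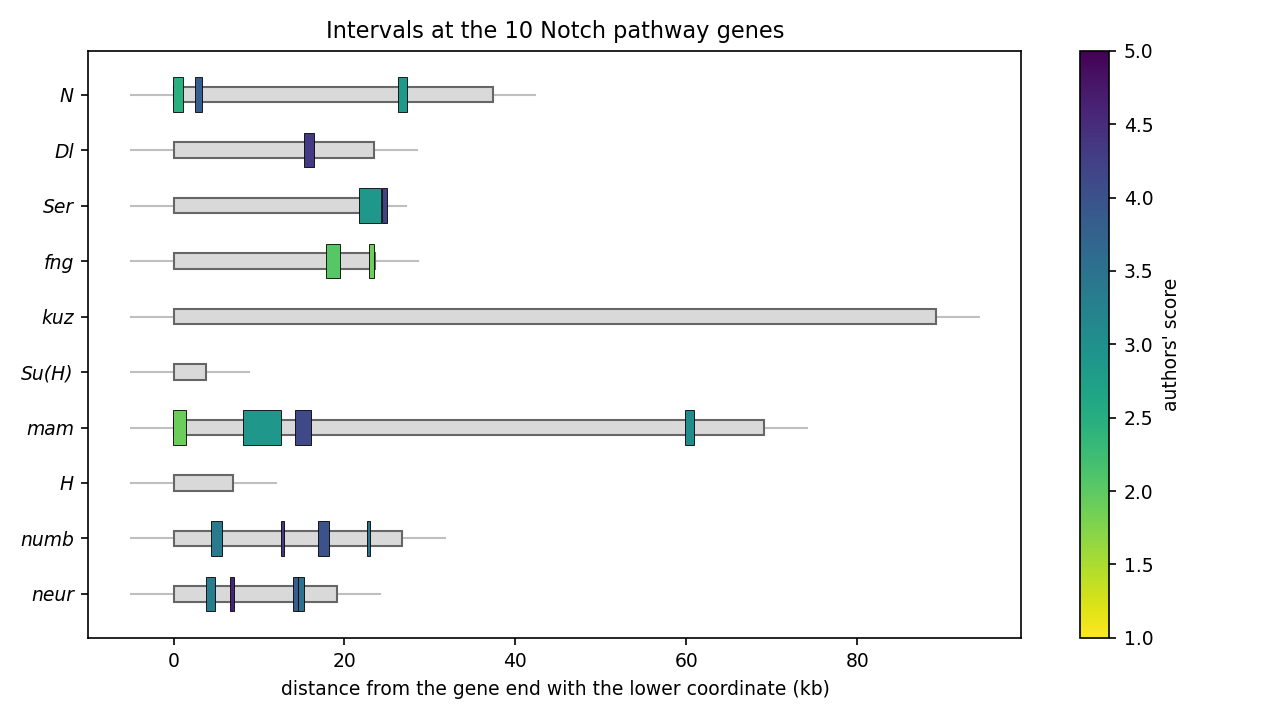
Each row is 1 of the 10 Notch pathway genes, with the gene body as a grey bar, 5 kb on either side as a line and intervals as boxes coloured by the authors' score; the horizontal axis is the distance in kb from the gene end with the lower coordinate. Intervals are spread along numb and neur, gather at 1 end in Ser and fng, and are missing from the whole length of kuz.

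The receptor gene N (CG3936, X:3134870-3172221, 37352 bp) had 3 intervals. The one at X:3134775-3136003 had a score of 2.46 (FDR 0.00603) and covered the lower end of the gene. The next, at X:3137405-3138249, began 2535 bp inside that end, with a score of 3.83 (FDR 1.53e-08). The last, at X:3161112-3162198, had a score of 2.85 (FDR 0.00391) and was separated from the others by 22862 bp with no interval. Among protein-coding genes from 15 kb to under 40 kb, 5.02% had at least 3. The highest of the 3 was the narrowest, at 845 bp, and ranked 462 of 2396 by score.

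The ligand genes differed in where their intervals lay. Dl (CG3619, listed as Delta in the gene table, 3R:19302731-19326217, 23487 bp) encodes the ligand Delta and had 1 interval, at 3R:19317950-19319209. Its score was 4.34 (FDR 4.51e-07, rank 179), and its midpoint lay 15849 bp from the lower end, at 67.5% of the length of the body. No other protein-coding gene reached into the 5 kb flanks of Dl. Ser (CG6127, 3R:27172090-27194267, 22178 bp) encodes the ligand Serrate and had 2 intervals at its higher end. The one at 3R:27193761-27196320 covered that end, with 2053 of its 2560 bp beyond it, and had a score of 2.88 (rank 1141). The other, at 3R:27196426-27197121, lay wholly outside the body, 2159 bp from it, with a score of 4.21 (rank 240). Only 105 bp separated the pair, and both carried the same FDR of 1.04e-10. Ser was the protein-coding gene nearest to both midpoints. At least 2 intervals were found at 16.7% of protein-coding genes from 15 kb to under 40 kb.

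Fringe, the product of fng, adds a sugar to Notch and so shifts the receptor's response towards Delta and away from Serrate. The gene (CG10580, 3L:20925891-20949512, 23622 bp) had 2 intervals, with midpoints at 78.9% and 98.1% of the body counted from the lower end. They lay at 3L:20943711-20945327, with a score of 2.05 (FDR 0.00011, rank 2080), and at 3L:20948781-20949346, with a score of 1.89 (FDR 0.00293, rank 2223). The second ended 166 bp inside the higher end of the gene. Both scores fell under the lower quartile of the list, 2.31, and fng was the 1 gene of the 7 with no interval at or above the list median of 2.83. A further interval at 3L:20920375-20920882, with a score of 3.13, missed the flank of fng narrowly: it lay 5009 bp from the body and was not counted. That interval was the nearest outside the 5 kb limit, and the Ser interval 2159 bp from its gene was the farthest inside it.

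Neuralized, the product of neur, is an E3 ubiquitin ligase that drives endocytosis of the ligands in the signal-sending cell. The gene (CG11988, 3R:9020348-9039471, 19124 bp) was the shortest of the 7 with intervals and had 4, all inside its body. The interval at 3R:9024175-9025183 had a score of 3.32 (FDR 0.0004). The one at 3R:9026892-9027463 had a score of 4.60 (FDR 2.86e-05), the highest score at any of the 10 genes, and ranked 108 of 2396. The remaining pair, at 3R:9034296-9034879 with a score of 3.83 and 3R:9034959-9035564 with a score of 3.49, was 79 bp apart and shared an FDR of 2.84e-09. All 4 scores were above the list median.

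Numb binds Notch and its partner Sanpodo and keeps the pathway off in the daughter that inherits it. The gene (CG3779, 2L:9437469-9464184, 26716 bp) also had 4 intervals, spaced along the body with gaps of 4002 to 6907 bp between them. They lay at 2L:9441833-9443137 with a score of 3.36 (FDR 0.000657), 2L:9450045-9450365 with 4.33 (FDR 4.12e-07), 2L:9454368-9455680 with 3.99 (FDR 7.08e-09) and 2L:9460047-9460434 with 3.46 (FDR 0.0012). All 4 scores were above the list median, and the highest belonged to the narrowest interval of the 20, 321 bp wide, which ranked 186. At least 4 intervals were found at 19 of the 897 protein-coding genes from 15 kb to under 40 kb (2.12%), and numb and neur are among these 19. Among all protein-coding genes the share with at least 4 was 0.668%. The genes numb and neur had 10.9 and 13.7 intervals per 100 kb of body and flanks, the highest densities of the 10 genes.

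Mastermind, the product of mam, joins the Notch intracellular domain on Su(H) as a co-activator. The gene (CG8118, 2R:13991203-14060356, 69154 bp) had 4 intervals. The one at 2R:13991127-13992676 covered the lower end of the gene with a score of 1.90 (FDR 1.86e-05, rank 2215). The next, at 2R:13999295-14003725, was the widest of the 20, at 4431 bp, with a score of 2.87, and 1726 bp beyond it lay 2R:14005452-14007300, with a score of 4.13 (rank 277). These neighbours shared an FDR of 2.74e-10, and the second of them also overlapped the microRNA gene mir-4978. After a stretch of 43785 bp with none, the last lay at 2R:14051086-14052150 with a score of 3.07 (FDR 0.00293). In genes of this size such a number was less rare, since 64 of the 461 protein-coding genes of 40 kb or more (13.9%) had at least 4.

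The 3 genes without an interval act at different steps. Kuzbanian, the product of kuz, is the ADAM protease that makes the ligand-dependent cut in Notch. The gene (CG7147, 2L:13550139-13639411) is the longest of the 10, at 89273 bp, and its nearest interval lay 9100 bp away, at 2L:13538062-13541039 with a score of 1.97. It shared this absence with 128 of the 461 protein-coding genes of 40 kb or more, itself included. Su(H) (CG3497, 2L:15039488-15043334, 3847 bp) encodes the DNA-binding factor of the pathway, and its nearest interval was 71081 bp away. H (CG5460, 3R:20621938-20628915, 6978 bp) encodes Hairless, the adaptor through which Su(H) recruits co-repressors, and its nearest interval was 24173 bp away. An interval is listed only where the authors called one, so these genes may hold signal under the limit of the list, which was not analysed here.

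The scores at the Notch pathway genes were next set beside those of the rest of the list. The 20 scores had a median of 3.41 and lay between 1.89 and 4.60, and the other 2376 scores had a median of 2.82 and lay between 1.24 and 6.47. Of the 20, 16 were at or above the median of the whole list, and 8, at 6 genes (N, Dl, Ser, mam, numb and neur), were at or above its upper quartile of 3.62. The highest of them ranked 108. The 3 at or under the lower quartile were both intervals of fng and the one over the end of mam. The 20 intervals were also narrow, with a median width of 1076 bp, against 1620 bp in the other intervals. Between the quartiles of their own widths, about 601 and 1372 bp, the median score was 3.42 in 10 intervals at the Notch pathway genes, and it was 3.43 in 722 other intervals of those widths.

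**Figure D3:**
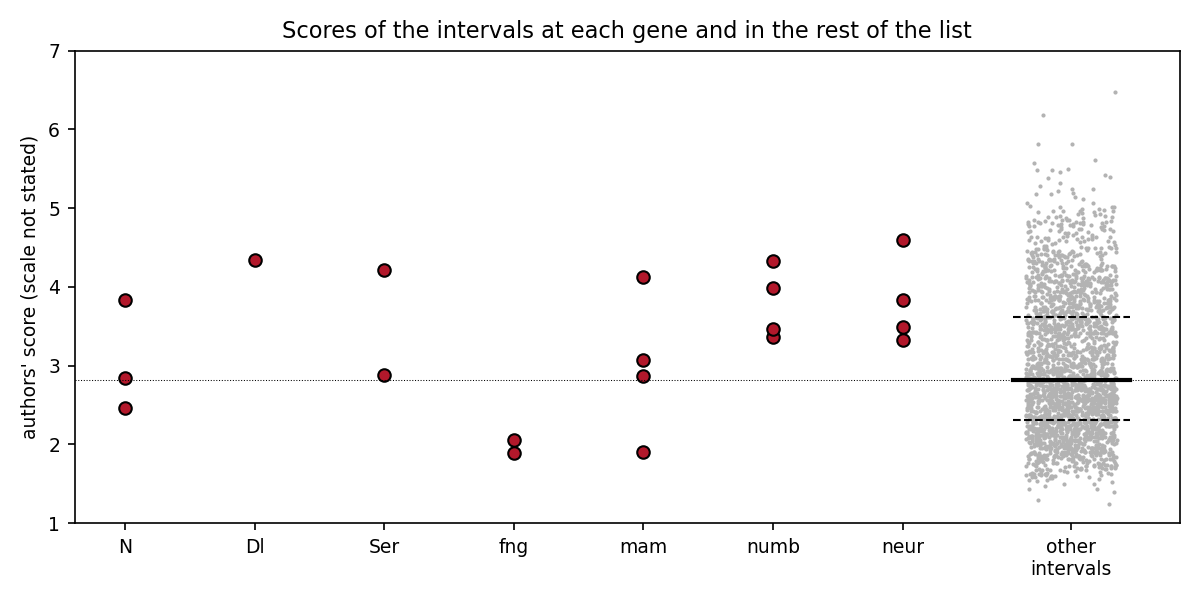
The authors' score (vertical axis, scale not stated) of each interval at the 7 Notch pathway genes with intervals (red) and of all other intervals (grey, spread sideways), whose median of 2.82 is the solid bar and the dotted line and whose quartiles are dashed. All 4 scores at numb and at neur lie above the line, and both at fng lie under it.

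**Figure D4:**
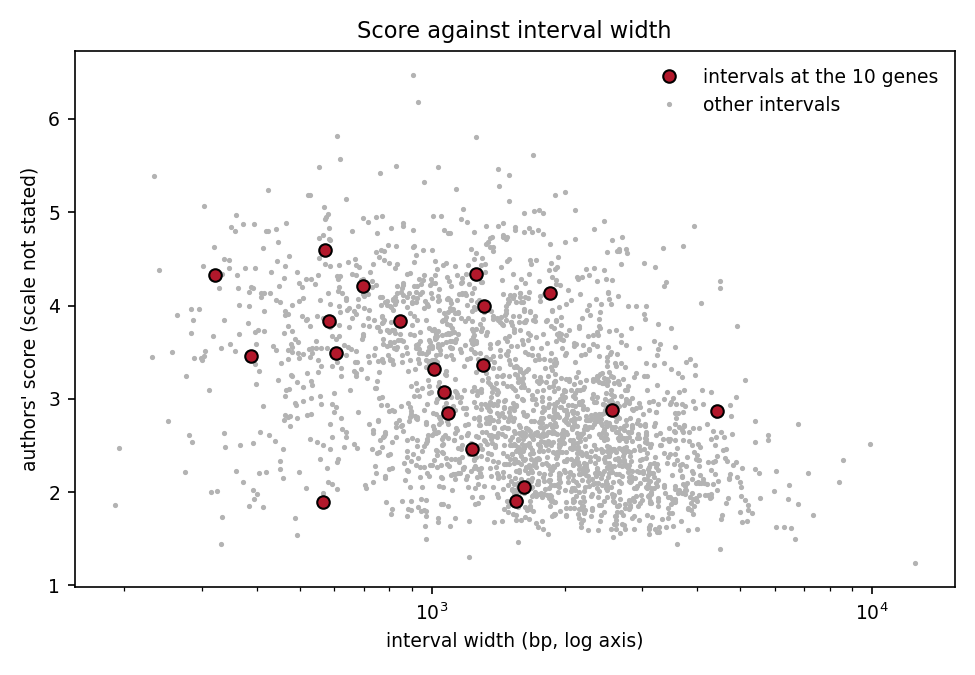
The authors' score (vertical axis) against interval width in bp (horizontal log axis) for the 20 intervals at the Notch pathway genes (red) and the other intervals (grey). Grey points at large widths have lower scores, and most red points lie at widths under 1620 bp.

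Neighbouring intervals with an identical FDR were found at Ser, mam and neur, 6 of the 20 intervals (30.0%). In the list on the 6 arms, 260 intervals (10.9%) had a neighbour within 5 kb with the same FDR. The list holds only 140 distinct FDR values, and how they were assigned is not stated. Intervals of such a pair may not be separate calls, which was not tested. Joining intervals within 1 kb merged the pairs at Ser and neur and left 18 intervals at the 7 genes. After joining, neur had fewer than 4, while numb, whose gaps were at least 4002 bp, kept its 4. The shares of genes with at least 4 were not recounted after joining.

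Further genes of the pathway were looked up from a list of 59, of which 30 had an interval by the same rule, against 19.9% of all protein-coding genes. This list, too, was chosen with earlier results of these data known, so its shares are descriptions only. By length, an interval was found at 13 of 19 listed genes under 2 kb, against 14.8% of all genes of that length. All 13 belong to the Enhancer of split complex or to the Bearded cluster on 3L, where neighbours share intervals, so they are not 13 separate cases. The listed genes under 2 kb outside these clusters, aph-1, pen-2, O-fut1 and rumi, had none. An interval was found at 5 of 11 from 2 kb to under 5 kb, against 15.8%, and at 5 of 15 from 5 kb to under 15 kb, against 21.9%. From 15 kb to under 40 kb only 1 of 8 had one, against 43.7%, unlike the 6 of 6 among the Notch pathway genes described above. All 6 listed genes of 40 kb or more had one, against 72.2%. The list includes neighbours that share intervals: 11 of its genes lie in the Enhancer of split complex, and 20 of the other 48 had an interval. Gamma-secretase, the enzyme that frees the intracellular part of Notch, had none at its 4 subunit genes (Psn, nct, aph-1 and pen-2). There was also none at the 3 genes of glycosylation and folding of the receptor (O-fut1, rumi and Ogt). Most of these genes are short: aph-1, pen-2, O-fut1 and rumi fall in the length class with 14.8%, and Psn and nct in that with 15.8%. Ogt, of 22268 bp, falls in the class with 43.7%. Among 4 other protease genes, Fur1, a furin, had 3 intervals with scores from 2.72 to 3.88. It is longer than 40 kb, as is Smr below, a length at which 72.2% of protein-coding genes had an interval. Among 4 genes of ligand endocytosis, mib1, the other E3 ligase of the ligands, had 1 with a score of 1.70, which overlapped the neighbour hzg. Of 7 nuclear co-factor genes, 2 had intervals: Smr, a co-repressor, with scores of 2.14 and 4.34, and gro, the co-repressor recruited by Hairless and by the E(spl) proteins, with a score of 3.17. Both gro and mib1 fall in the length class with 21.9%.

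Genes of asymmetric cell division, which place Numb and other determinants in 1 daughter, had intervals in 6 of 7 cases. Of the 6, pros, brat and baz are 40 kb long or more, a length at which 72.2% of protein-coding genes had an interval, and aPKC, of 18512 bp, falls in the class with 43.7%. The classes of insc and of mira had shares of 21.9% and 15.8%. The interval with the highest score on the list of 59 genes lay at brat, a determinant of neural stem cell progeny, at 2L:19154579-19155214 with a score of 5.14 (rank 22). The others at brat had scores of 2.91 and 3.53. The homeodomain gene pros had 4 intervals with scores from 3.08 to 4.45, of which 2 also overlapped KP78a and KP78b inside it. At insc, which orients the division, the interval 245 bp outside the body had a score of 4.47. The other genes were baz, with scores of 3.74 and 2.56, mira, with 2.95, and aPKC, with 2.42; par-6 had none. Of 9 genes of receptor traffic, 4 had an interval: lgd with a score of 1.95, spdo with 2.79, Nak with 3.08, and AP-1gamma with 2.67 and 2.21. The length class of lgd and spdo had a share of 15.8%, and that of Nak and AP-1gamma had 21.9%. Among all protein-coding genes the share was 19.9%. The intervals of spdo and Nak lay outside their bodies, that of spdo over PH4alphaEFB, and the lower-scored one of AP-1gamma lay outside its body, over fend.

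The Enhancer of split complex holds the best-known targets of Notch, 7 genes of bHLH repressors and 4 of the Bearded family, on 3R:25997621-26041008. This span holds 12 protein-coding genes in all, and only the 11 of these families were looked up. Within these 43.4 kb lay 8 intervals, and another lay within 5 kb before them. Of 2669 consecutive 50 kb windows along the 6 arms, 4 (0.150%) held 8 or more interval midpoints, and the highest number was 9. These windows lie on a fixed grid, whereas the 8 were counted by overlap with a span fitted to the complex. An edge of the grid falls inside the complex and no window holds all 8, so this share is not the rank of the complex. All 7 bHLH genes and 3 of the 4 Bearded family genes, all but E(spl)m2-BFM, had an interval within 5 kb. These 10 genes share 9 intervals, so they are not 10 separate cases. E(spl)m4-BFM was the 1 gene of the 11 whose body was overlapped. The interval before the complex, with a score of 2.33, lay 118 bp from E(spl)mdelta-HLH but overlapped the body of another gene, CG43116. One with a score of 2.59 lay 69 bp from E(spl)mgamma-HLH. At E(spl)m5-HLH the nearest interval, 607 bp away, had a score of 3.73. Of 6516 protein-coding genes under 2 kb, the size of the genes of the complex, 14.8% had an interval within 5 kb.

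**Figure D5:**
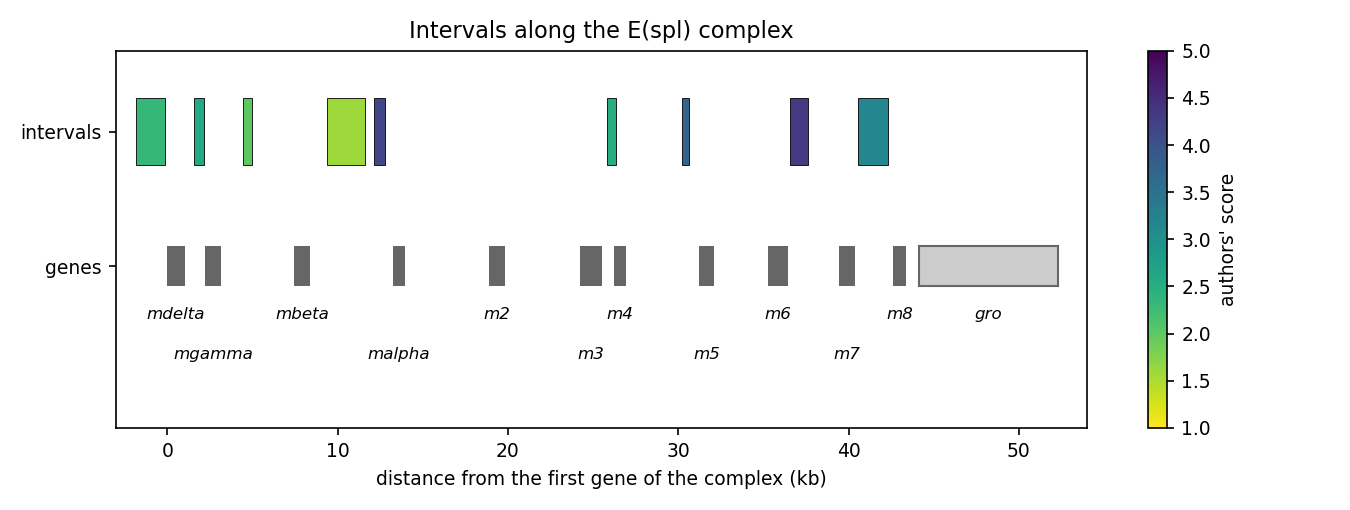
Intervals (upper row, coloured by the authors' score) above the 11 listed genes of the E(spl) complex (dark bars) and gro (light bar), against the distance in kb from the first gene of the complex. The span holds 12 protein-coding genes, and only the listed ones are drawn. The intervals stand mostly between genes, with none from about E(spl)malpha-BFM to E(spl)m3-HLH.

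Scores in the complex covered a wide range. The highest, 4.33, lay at 3R:26034206-26035219 beside E(spl)m6-BFM, and the next, 4.16, at 3R:26009765-26010375, 518 bp from E(spl)malpha-BFM. The lowest, 1.59, was at 3R:26006972-26009226 near E(spl)mbeta-HLH and ranked 2379 of 2396. The interval at 3R:26038184-26039936, with a score of 3.17 and an FDR of 1.04e-10, lay between E(spl)m7-HLH and E(spl)m8-HLH and was also the one counted at gro. The median of the 9 scores was 2.59, against 2.83 in the whole list.

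In the second Bearded cluster, on 3L, Brd, Tom and Ocho shared the interval at 3L:14972117-14972632, with a score of 3.85, 35 bp from Brd. Tom had another with a score of 2.71, and the 1 Bob gene looked up, BobA, had none. Of 6 other targets, dpn, a bHLH gene of neural stem cells, had 3 intervals within 5 kb on 1 side of its body, with scores of 4.21, 1.72 and 4.60. The gene pnut was nearer than dpn to the midpoint of the one with 4.60. At Hey, a bHLH gene that marks Notch-on siblings in neuronal lineages, the interval 2788 bp away had a score of 3.86. The genes ACC, Nup44A and Dic3 were all nearer than Hey to its midpoint. The homeobox gene ct had 2 intervals with scores of 2.79 and 2.69, and vg, wg and Sox15 had none. The length class of dpn and Hey had a share of 15.8%. With more than 40 kb, ct falls in the class with 72.2%.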

How the data were processed

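The authors deposited 1 BED list for the series with an interval score and an FDR written as text; the score's unit, normalization and direction are not stated. The build is BDGP6, per the submitters' processing notes. The peak caller, aligner, filters and handling of the 3 replicates per group are not given in the sources used here. Starts were converted to 1-based positions. Intervals were set against the bodies of 13922 protein-coding genes (RefSeq Release 6 table) and 5 kb on both sides, with an overlap of at least 1 bp; all members were found, Dl through its locus tag. The 2 intervals on Y were left out of gene counts. No test was run. The assignment was tested on simulated data with planted intervals. The members and lists were chosen with earlier results of these data known. All members and every interval of theirs are named, as are listed pathway genes with an interval. Of the pathway list, rho and her were removed because they are not genes of this pathway; neither had an interval. The planned motif counts in promoters were not made. Python 3.11.15, numpy 2.4.6 and pandas 2.3.3 were used.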

Additional observations from a re-analysis of the deposited data

How the results depend on the processing

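No paired analysis was possible because the list names no sample, and for the same reason no replicate could be left out. The number of Notch pathway genes with an interval was 6 to 8 over 7 alternatives: fng dropped out among intervals at or above the list median, and kuz was added with a flank of 10 kb. The intervals at these genes numbered 13 among those with an FDR at or below the list median of 0.000267, and 16 to 23 in the other 7 alternatives. The median score ranged from 3.32 to 3.83. The genes of the longer pathway list with an interval fell to 11 with gene bodies alone and to 19 when each interval went only to the nearest protein-coding gene; in the other alternatives there were 21 to 34. The share of all protein-coding genes, 19.9% as reported, was 8.32% with bodies alone, 10.9% with a flank of 1 kb and 30.3% with 10 kb. It was 18.1% when at least 50% of the interval had to lie inside, 10.9% among the higher scores, 10.2% among the lower FDR values and 9.75% with the nearest gene. With no depth or replicate values, none of these numbers carries an experimental error.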
